A study of Mus musculus with 6 samples.

Results

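The muscles of the jaw form from progenitors in the mesodermal core of the first pharyngeal arch. The 10 genes described here are regulators and markers of that lineage: the upstream factor genes Tbx1, Msc, Tcf21, Lhx2 and Pax7, and the myogenic genes Myf5, Myod1, Myog, Myf6 and Cdh15. They were taken by gene symbol from 21827 listed genes, and all 10 were found, each on 1 row. In the head, Tbx1, Msc, Tcf21 and Lhx2 act upstream of the muscle regulatory factors, whereas Pax3 has that place in trunk and limb muscle. Myf5 and Myod1 commit a cell to the muscle lineage, and Myog then drives its differentiation into fibres. Pax7 marks later progenitors and satellite cells.

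Polyadenylated RNA was sequenced from the distal mandible, the tip of the lower jaw, of single mouse embryos at E10.75, in midgestation. The 6 libraries are 3 labelled mutant (Msx1f/f;Msx2f/f;Rosa26mTmG/+;Hand2-Cre) and 3 labelled control (Msx1f/+;Msx2f/f;Rosa26mTmG/+;Hand2-Cre), paired within 3 litters. Embryos of either label have Hand2-Cre, the mTmG reporter that turns recombined cells green, and floxed Msx2 on both copies, so no embryo has intact Msx genes. Green distal mandibles were dissected as pieces, and the labels describe no sorting of cells, so any muscle precursor in the piece adds its RNA to that of the mesenchyme, epithelium, vessels and blood around it. In such bulk samples, fewer cells of a type and less RNA per cell cannot be told apart.

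Values are TPM, an abundance per transcript length scaled to a fixed total per library, so levels can be compared between genes. Msx1, the gene whose floxed dose separates the labels, went against them in 4 of the 6 libraries. In litter 1 the mutant-labelled library had 1.90 TPM and the control-labelled library 84.1 TPM of Msx1. In litters 2 and 3 the mutant-labelled libraries had 78.8 and 73.3 TPM, and the control-labelled libraries 2.61 and 1.99 TPM. The library with Msx1 under 10 TPM is called low-Msx1 below and its littermate with Msx1 over 50 TPM high-Msx1. The low-Msx1 library is thus the one labelled mutant in litter 1 and the one labelled control in litters 2 and 3. Because that order comes from a measured value and not from the labels, the pairs are given as values. The tests follow the labels as deposited. Each labelled group holds libraries of both Msx1 levels, so these tests do not compare low with high Msx1. In the authors' deposited table Msx1 was at -5.19 ± 0.26 log2 units (the table's standard error). This size is near the gap between littermates and far beyond the gap between the labelled groups. The groups of that table thus appear to follow the Msx1 level. Genes of crest mesenchyme were high in all 6 libraries, with the summed TPM of 8 of them, among them Hand2, Dlx5, Twist1 and Prrx1, at 999 to 1087. The exact site of dissection was not tested. Genes of red blood cells took 3.02% of all listed TPM in the mutant-labelled library of litter 1, while the other libraries had 0.953% to 1.31%.

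Transcripts of the muscle lineage were scarce in every library. Of the 10 genes, 3 reached 1 TPM in at least 3 libraries (Tbx1, Tcf21 and Lhx2), and none reached 5 TPM in any library. In the order of mean TPM over the 6 libraries, Tbx1 came first at 3.08, followed by Tcf21 at 2.41, Lhx2 at 1.66, Myf5 at 0.649, Cdh15 at 0.376, Msc at 0.337, Myod1 at 0.289, Myog at 0.0890, Myf6 at 0.0789 and Pax7 at 0.0125. Each neighbour in this order overlapped the next in its range over libraries, except Lhx2 and Myf5. The lowest value of Tbx1, Tcf21 or Lhx2 in any library, 1.10 TPM, was above the highest value of Myf5, 1.01 TPM. The mean of Tbx1 exceeded that of 54.0% of all listed genes, that of Myf5 41.6% and that of Pax7 21.2%. In the authors' deposited table the base mean, an average over libraries of counts corrected for depth, was 20.1 for Tbx1, 20.6 for Tcf21, 20.2 for Lhx2 and 13.9 for Myf5. It was 7.83 for Cdh15, 3.31 for Msc, 3.02 for Myod1, 0.853 for Myog, 0.806 for Myf6 and 0.491 for Pax7 in the authors' deposited table, against a median of 108 over all genes with a p-value. The values of these 10 genes therefore rest on few reads, and the lowest of them on less than 1 normalised count per library.

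**Figure D1:**
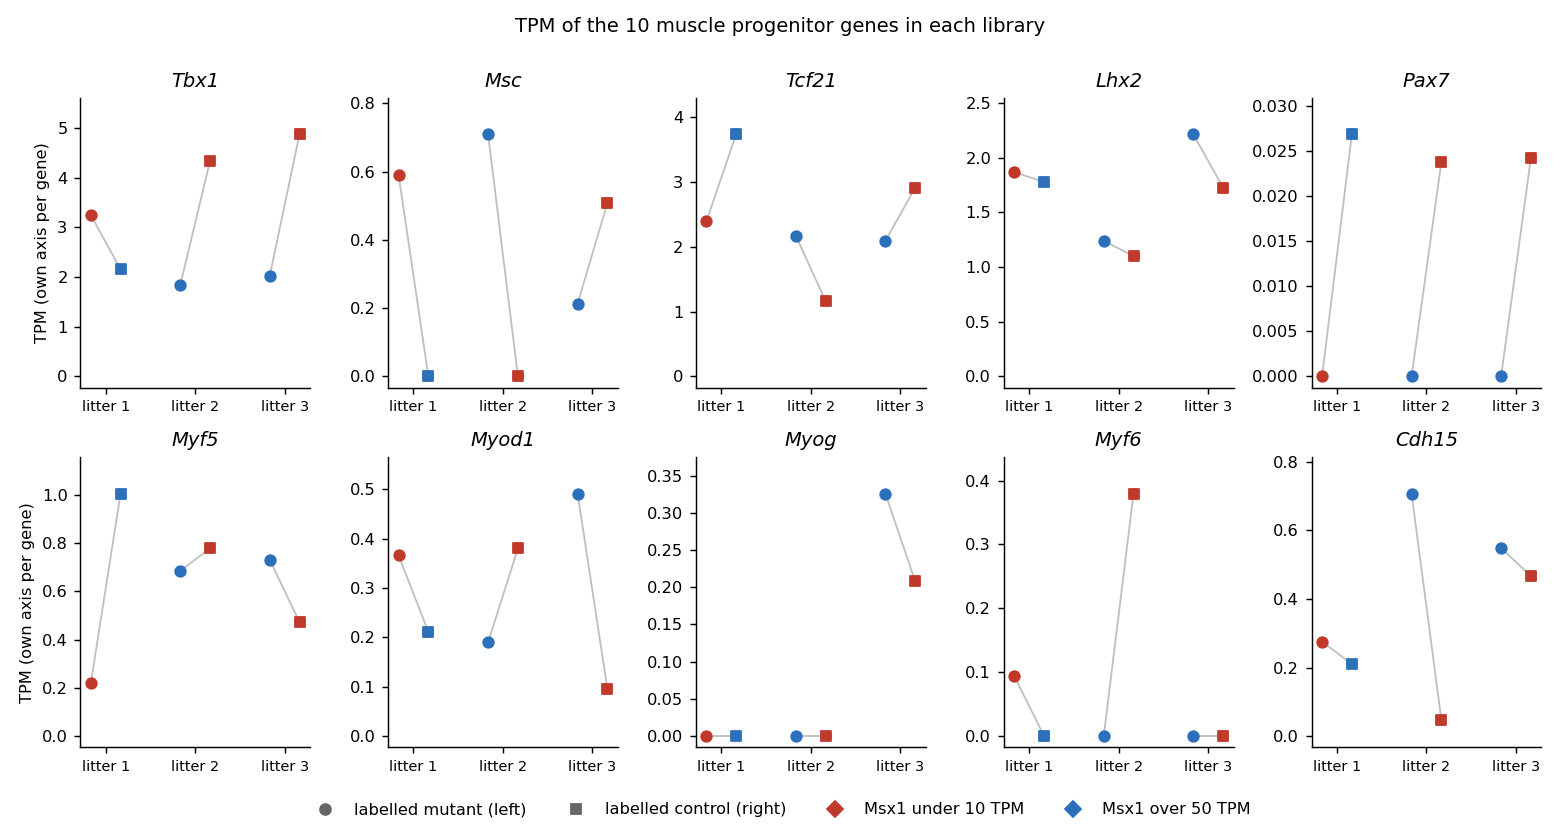
TPM (vertical axis, with its own range for each gene) of the 10 genes in each library, by litter; circles are libraries labelled mutant, squares are libraries labelled control, lines join littermates, and colour gives the Msx1 level. Tbx1 is at 3.25 TPM or more in the low-Msx1 libraries and at 2.15 TPM or less in the high-Msx1 littermates, whereas the other genes change order between litters or are listed at 0 in some libraries.

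Tbx1 encodes the T-box factor of pharyngeal mesoderm and pharyngeal epithelium, and lies on the minus strand of chromosome 16 (18580979 to 18590671, GRCm38). It was at 3.25, 4.34 and 4.88 TPM in the low-Msx1 libraries of litters 1, 2 and 3, and at 2.15, 1.84 and 2.03 TPM in their high-Msx1 littermates. The low-Msx1 library was higher in each litter, 1.51-fold, 2.36-fold and 2.41-fold, and the 3 low-Msx1 values did not overlap the 3 high-Msx1 values. Among genes above 0 in any library, 9.71% were higher in the low-Msx1 library in all 3 litters and 4.11% were higher there without overlap. In the authors' deposited table, where Msx1 is negative at -5.19 ± 0.26, Tbx1 was at 1.00 ± 0.76 log2 units (the table's standard error; p = 0.190, adjusted p = 1.000). The difference therefore did not pass the table's threshold, and its standard error was above the median of 0.36 over all genes with a p-value.

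By the labels as deposited, Tbx1 averaged 2.37 ± 0.77 TPM in the libraries labelled mutant and 3.79 ± 1.44 TPM in those labelled control (SD, n = 3 each). The log2 difference was -0.48, with a 95% confidence interval from -1.12 to 0.16 (limma adjusted p = 0.743). Its sign is opposite to that between littermates, since the low-Msx1 libraries of litters 2 and 3 are labelled control. Tbx1 is also a gene of epithelium, so epithelial markers are set beside it. The summed TPM of 10 epithelial genes was 149, 155 and 171 in the low-Msx1 libraries of litters 1, 2 and 3, and 171, 151 and 163 in their high-Msx1 littermates. The order of that sum in litter 1 was the opposite of the order of Tbx1, and the part of epithelium in the Tbx1 values was not tested. All 10 epithelial genes averaged at least 1 TPM, with Epcam at 16.8 to 22.2 TPM. The RefSeq table has 2 windows for Tbx1. The one at its upstream start ( chr16:18590622-18590921, minus strand, GRCm38.p6) is shown because the gene kept its order in all 3 litters, and the other (chr16:18588850-18589149) holds no CANNTG and no TAATTG. Capitals mark E-boxes, the CANNTG motif of basic helix-loop-helix factors such as Myf5 and Myod1.

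Tbx1: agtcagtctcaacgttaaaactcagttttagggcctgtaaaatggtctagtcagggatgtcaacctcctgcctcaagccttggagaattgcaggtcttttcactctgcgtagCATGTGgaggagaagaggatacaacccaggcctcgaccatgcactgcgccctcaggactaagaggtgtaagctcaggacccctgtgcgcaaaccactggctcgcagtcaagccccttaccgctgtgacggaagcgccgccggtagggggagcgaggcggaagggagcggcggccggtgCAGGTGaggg

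The window holds E-boxes that begin 138 bases before the annotated start and at base 41 from it, counting the start as base 1. A match to TAATTG, a core that Msx homeodomain proteins can bind, was not found on either strand, and 8.0% of the 32851 RefSeq windows of this length hold one. E-boxes are frequent, with at least 1 in 72.3% of these windows.

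Tcf21 (capsulin) and Msc (MyoR) encode related basic helix-loop-helix factors of the arch core, which in the mouse are jointly needed for the jaw-closing muscles. Tcf21 (chromosome 10, 22817281 to 22820174) was at 2.39, 1.16 and 2.91 TPM in the low-Msx1 libraries of litters 1, 2 and 3, and at 3.74, 2.17 and 2.09 TPM in the high-Msx1 littermates. The low-Msx1 library was lower in litters 1 and 2 and higher in litter 3, so the values overlapped. By the labels Tcf21 averaged 2.22 ± 0.16 TPM in mutant and 2.60 ± 1.32 TPM in control libraries (SD, n = 3 each). The log2 difference was -0.09, with an interval from -0.75 to 0.57 (limma adjusted p = 0.948), and -0.35 ± 0.77 in the authors' deposited table (p = 0.647). Msc (chromosome 1, 14753346 to 14755992) was at 0.590 TPM, listed at 0 and at 0.508 TPM in the low-Msx1 libraries of litters 1, 2 and 3, and listed at 0, at 0.710 and at 0.213 TPM in the high-Msx1 littermates. Its order thus changed between litters, and the authors' deposited table gives 0.80 ± 2.18 (p = 0.713). Each of the 2 genes overlaps an annotated antisense gene, and whether the libraries keep strand is not given in the sources used here.

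Lhx2, a LIM-homeodomain gene of the arch mesoderm that is also used in neural and limb tissue, lies on chromosome 2 (38339281 to 38369733) with 2 annotated antisense genes. It was at 1.87, 1.10 and 1.73 TPM in the low-Msx1 libraries of litters 1, 2 and 3, and at 1.78, 1.24 and 2.22 TPM in the high-Msx1 littermates. These ratios were close to 1 in each litter (1.05, 0.888 and 0.779), the narrowest set among the genes above 0 in every library. By the labels it averaged 1.78 ± 0.50 TPM in mutant and 1.53 ± 0.38 TPM in control libraries (SD, n = 3 each), a log2 difference of 0.13 with an interval from -0.37 to 0.62 (limma adjusted p = 0.907). Pax7, the paired-box gene of later progenitors (chromosome 4, 139737062 to 139833528), had a listed value of 0 in all 3 mutant-labelled libraries and was at 0.0269, 0.0238 and 0.0242 TPM in those labelled control of litters 1, 2 and 3. Pax7 was the 1 gene of the 10 whose labelled groups did not overlap, where 8.59% of genes above 0 in any library were lower and 2.68% higher in the mutant label without overlap. With a base mean of 0.491 in the authors' deposited table, that order rests on less than 1 normalised count per library.

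**Figure D2:**
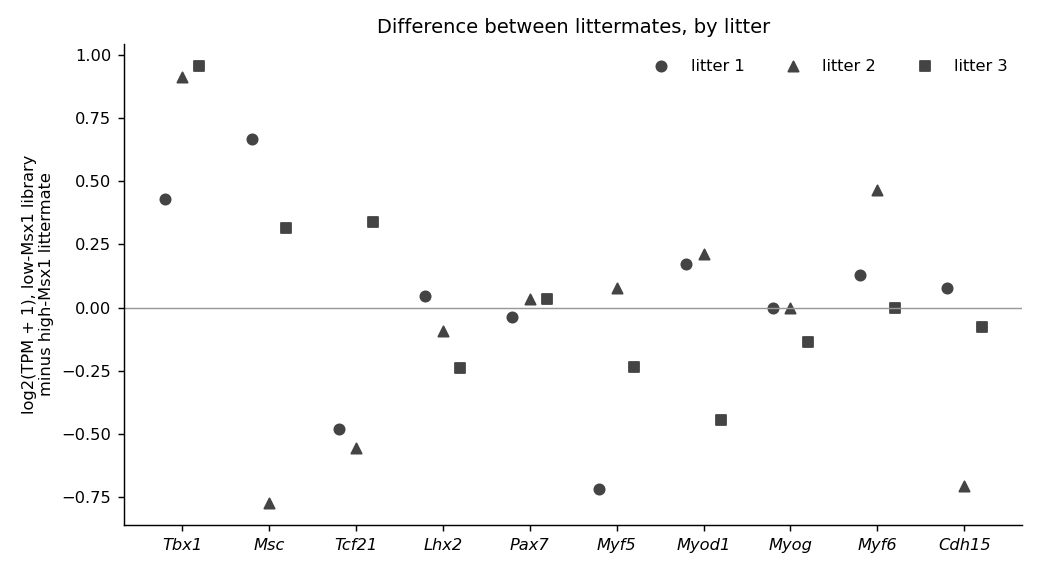
Difference in log2(TPM + 1) between the low-Msx1 library and its high-Msx1 littermate (vertical axis) for each gene, with 1 point per litter. Tbx1 is the gene with all 3 points above 0, from 0.43 to 0.96, and no gene has all 3 points below 0. Among genes above 0 in any library, 9.71% were higher and 10.9% lower in the low-Msx1 library in all 3 litters.

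Myf5, the first muscle regulatory factor of the embryo, lies on chromosome 10 (107482908 to 107486134), 6.72 kb from Myf6. It was at 0.218, 0.779 and 0.472 TPM in the low-Msx1 libraries of litters 1, 2 and 3, and at 1.01, 0.685 and 0.732 TPM in their high-Msx1 littermates. The low-Msx1 library was lower in litters 1 and 3 and higher in litter 2, and the values overlapped. Myf5 was above 0 in each library and reached 1 TPM in 1 of them, so it did not pass the filter of the labelled comparison. Its labelled means were 0.545 ± 0.284 TPM in mutant and 0.752 ± 0.268 TPM in control libraries (SD, n = 3 each), a gap smaller than either spread. The authors' deposited table gives -0.85 ± 0.94 for Myf5 (p = 0.370).

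Myod1, the other committing factor (chromosome 7, 46376474 to 46379099), was at 0.366, 0.380 and 0.0954 TPM in the low-Msx1 libraries of litters 1, 2 and 3, and at 0.211, 0.190 and 0.491 TPM in the high-Msx1 littermates. It was thus higher in the low-Msx1 library in litters 1 and 2 and lower in litter 3. The authors' deposited table gives -0.07 ± 1.87 (p = 0.968). Myf5 exceeded Myod1 in 5 of the 6 libraries, the exception being the low-Msx1 library of litter 1.

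Myog, which encodes the factor that turns on the fibre programme (chromosome 1, 134289989 to 134292548), was listed at 0 in all 4 libraries of litters 1 and 2. It was at 0.208 TPM in the low-Msx1 library and 0.326 TPM in the high-Msx1 library of litter 3. Myf6, which encodes MRF4, a factor of both early and late muscle (chromosome 10, 107492853 to 107494737), was at 0.0939 and 0.380 TPM in the low-Msx1 libraries of litters 1 and 2 and listed at 0 in the other 4 libraries. The base means of both genes in the authors' deposited table are under 1, and their standard errors there are 3.98 and 4.01 log2 units. Neither gene can therefore be ordered between littermates at this depth.

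Cdh15 encodes M-cadherin, an adhesion protein of myoblasts (chromosome 8, 122847966 to 122867397). It was at 0.276, 0.0471 and 0.467 TPM in the low-Msx1 libraries of litters 1, 2 and 3, and at 0.210, 0.707 and 0.549 TPM in the high-Msx1 littermates. The widest gap, in litter 2, went with a ratio of 0.0665, while litter 1 had the opposite order. The authors' deposited table gives -1.02 ± 1.29 (p = 0.430). Cdh15 overlaps the annotated gene Gm20388 on its own strand, so its reads may have been split between them.

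The RefSeq windows at the starts of Myf5 (chr10:107486085-107486384, minus strand) and Myog (chr1:134289754-134290053, plus strand; both GRCm38.p6) are shown because these 2 genes mark commitment, detected in all 6 libraries, and the step after it, listed at 0 in 4 of them. Capitals again mark CANNTG.

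Myf5: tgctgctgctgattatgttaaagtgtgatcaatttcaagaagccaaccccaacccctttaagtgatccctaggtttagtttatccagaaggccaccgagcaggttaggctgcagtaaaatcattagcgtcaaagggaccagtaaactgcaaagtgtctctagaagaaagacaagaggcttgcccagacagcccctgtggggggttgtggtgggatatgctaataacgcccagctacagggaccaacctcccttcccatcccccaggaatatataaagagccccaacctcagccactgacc

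Myog: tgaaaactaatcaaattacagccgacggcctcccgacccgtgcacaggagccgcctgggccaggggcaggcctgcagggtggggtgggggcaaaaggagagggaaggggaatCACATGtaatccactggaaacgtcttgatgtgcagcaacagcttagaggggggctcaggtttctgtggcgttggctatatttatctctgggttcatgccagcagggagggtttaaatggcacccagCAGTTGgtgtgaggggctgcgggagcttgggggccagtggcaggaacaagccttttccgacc

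The Myog window holds E-boxes that begin 138 and 12 bases before the annotated start. It also holds TCAGGTT, the MEF3 motif known from muscle promoters, beginning 84 bases before the start, a motif that 4.07% of the 32851 windows hold on either strand. No CANNTG was found in the Myf5 window, which holds TATAAA from base 21, counting the start as base 1, a motif found in 13.6% of windows on either strand. Of the 10 genes, 7 had a window in the RefSeq table.

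The muscle share was read from the summed TPM of Myf5, Myod1, Myog, Myf6 and Cdh15. The sum was 0.954, 1.59 and 1.24 TPM in the low-Msx1 libraries of litters 1, 2 and 3, and 1.43, 1.58 and 2.10 TPM in the high-Msx1 littermates, which gives ratios of 0.669, 1.00 and 0.592. The sum was lower in the low-Msx1 library in litters 1 and 3 and nearly equal in litter 2. In ppm of the listed TPM, the sum was 2.13 ± 0.81 in libraries labelled mutant and 1.95 ± 0.22 in those labelled control (SD, n = 3 each; exact two-sided permutation p = 0.7). The smallest p that 3 against 3 libraries can give is 0.1. Without Myf5 the means were 1.38 ppm in the mutant label and 0.916 ppm in the control label (exact p = 0.3). Between littermates, the sum without Myf5 was 0.736, 0.807 and 0.770 TPM in the low-Msx1 libraries of litters 1, 2 and 3. In the high-Msx1 littermates it was 0.421, 0.897 and 1.37 TPM. The order in litter 1 thus turned without Myf5, while the low-Msx1 library was lower in litters 2 and 3. The sum over Tbx1, Msc, Tcf21, Lhx2 and Pax7 was 9.43 ± 1.46 ppm in libraries labelled mutant and 11.2 ± 2.47 in those labelled control (SD, n = 3 each; exact p = 0.5). That sum was higher in the low-Msx1 library in each litter, 1.05-fold, 1.11-fold and 1.53-fold. Without Tbx1 that order was lost: the sum of the other 4 was 4.85, 2.28 and 5.17 TPM in the low-Msx1 libraries of litters 1, 2 and 3, and 5.54, 4.12 and 4.52 TPM in the high-Msx1 littermates. It was lower in the low-Msx1 library in litters 1 and 2 and higher in litter 3.

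**Figure D3:**
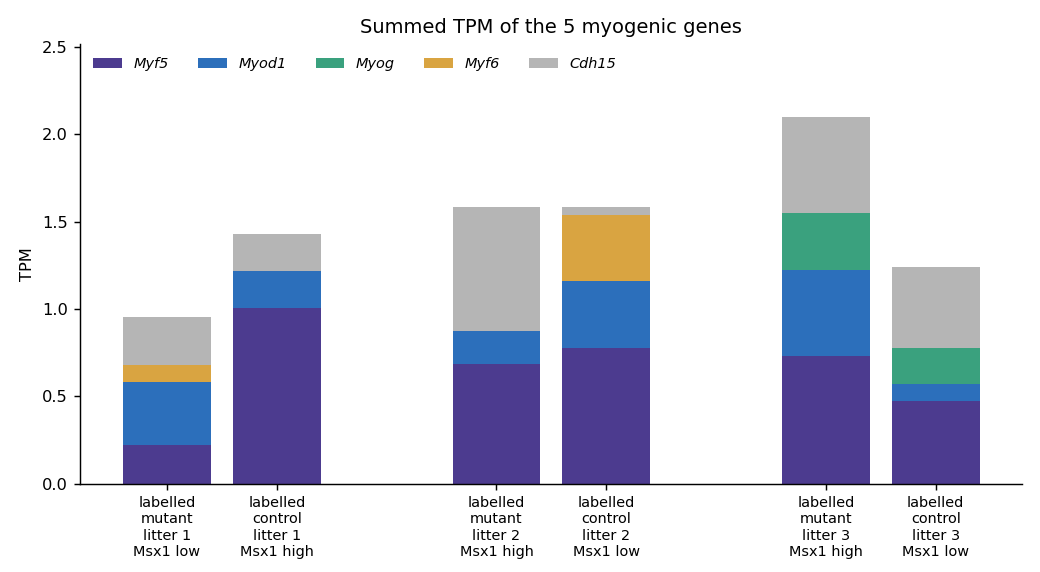
Summed TPM (vertical axis) of the 5 myogenic genes in each library, stacked by gene, with the library labelled mutant left of its littermate labelled control. The sums run from 0.954 to 2.10 TPM, and Myog adds to the libraries of litter 3 only.

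The genes that made up that sum differed between libraries. Myf5 made up 22.9%, 49.1% and 38.0% of it in the low-Msx1 libraries of litters 1, 2 and 3, and 70.5%, 43.3% and 34.9% in the high-Msx1 littermates. Myog made up 16.7% in the low-Msx1 and 15.5% in the high-Msx1 library of litter 3. Myf5 and Myod1 were above 0 in every library and Myog in 2, at levels too low to read a stage from.

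Among 6 other regulators of head muscle, 5 averaged at least 5 TPM, far above the 10 genes themselves. Eya1, Six4 and Eya4, which encode a homeodomain protein (Six4) and transcriptional cofactors (Eya1 and Eya4), averaged 63.8, 20.1 and 18.4 TPM, and Mef2c, which encodes a MADS-box factor of muscle, averaged 11.2 TPM. These genes also serve other tissues, so their levels are no measure of muscle. In all 3 litters Eya1 and Six4 were lower in the low-Msx1 library, 2 of 6 genes, against 10.9% of genes above 0 in any library. Eya1 was at 54.2, 61.9 and 65.4 TPM in the low-Msx1 libraries of litters 1, 2 and 3, and 70.6, 64.2 and 66.7 TPM in the high-Msx1 littermates. The ranges overlapped across litters, and the gap was widest in litter 1. The authors' deposited table gives -0.15 ± 0.14 for Eya1 (p = 0.274), and of the 6 genes it called 0 positive and 0 negative at an adjusted p of 0.05, where 0.0618% of genes were called positive and 0.0343% negative. Its median log2 fold change over the 6 was -0.15, beside 0.001 over all genes with a p-value. Limma called 0 of the 5 tested by label, beside 0% of all 12152 genes tested in either direction, with 231 higher and 586 lower in the mutant label at an unadjusted p under 0.05. After median-of-ratios scaling these were 410 higher and 305 lower, so the excess of lower genes turned with the scaling.

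Of 5 genes of trunk and limb progenitors, Met, a receptor of migrating precursors, averaged 1.94 TPM and Pax3 1.81 TPM, while Lbx1 averaged 0.233 TPM. Pax3 is also a neural crest gene. It was at 1.31, 1.28 and 1.27 TPM in the low-Msx1 libraries of litters 1, 2 and 3, and at 2.69, 2.56 and 1.74 TPM in the high-Msx1 littermates, lower in each litter and without overlap. That direction without overlap was found in 4.74% of genes above 0 in any library. The authors' deposited table gives -0.84 ± 0.46 for Pax3 (p = 0.0685, adjusted p = 1.000).

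Of 15 genes of the step from myoblast to myotube, 10 averaged under 1 TPM, and Mymk, which encodes the fusion protein myomaker, was listed at 0 in every library, as was Itga7. The highest were Cdon, Hes6, Chrna1 and Megf10, at 18.7, 11.2, 2.08 and 1.92 TPM, and the first 2 are used widely outside muscle. Chrna1, an acetylcholine receptor subunit gene, was at 1.75, 1.45 and 1.97 TPM in the low-Msx1 libraries of litters 1, 2 and 3, and at 2.88, 2.23 and 2.17 TPM in the high-Msx1 littermates. In all 3 litters 5 of the 15 were lower and 1 was higher in the low-Msx1 library (4 and 1 after median-of-ratios scaling), against 10.9% and 9.71% of genes above 0 in any library. No gene of the list was called in the authors' deposited table, where Chrna1 was at -0.49 ± 0.39 (p = 0.209), and the list's median was 0.04. Of 19 sarcomere genes, 9 averaged under 1 TPM. Tpm2, a tropomyosin gene used by many cell types, averaged 44.6 TPM, and the slow-fibre troponin gene Tnnt1, the intermediate filament gene Des and the fast-fibre light chain gene Mylpf averaged 7.63, 5.20 and 4.73 TPM. In all 3 litters 4 of the 19 were higher and 2 lower in the low-Msx1 library (4 and 3 after median-of-ratios scaling). Among genes above 0 in any library these shares were 9.71% and 10.9%. The authors' deposited table called none of the 19, where 0.0618% of genes were called positive and 0.0343% negative. The list's median there was -0.48, beside 0.001 over all genes with a p-value. That median includes genes with few reads and wide errors, such as Acta1 at -1.65 ± 2.54 and Actn2 at 1.29 ± 1.29. Myh3 and Myh8, the myosin heavy chain genes of embryonic and newborn fibres, did not exceed 0.0460 TPM in any library.

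**Figure D4:**
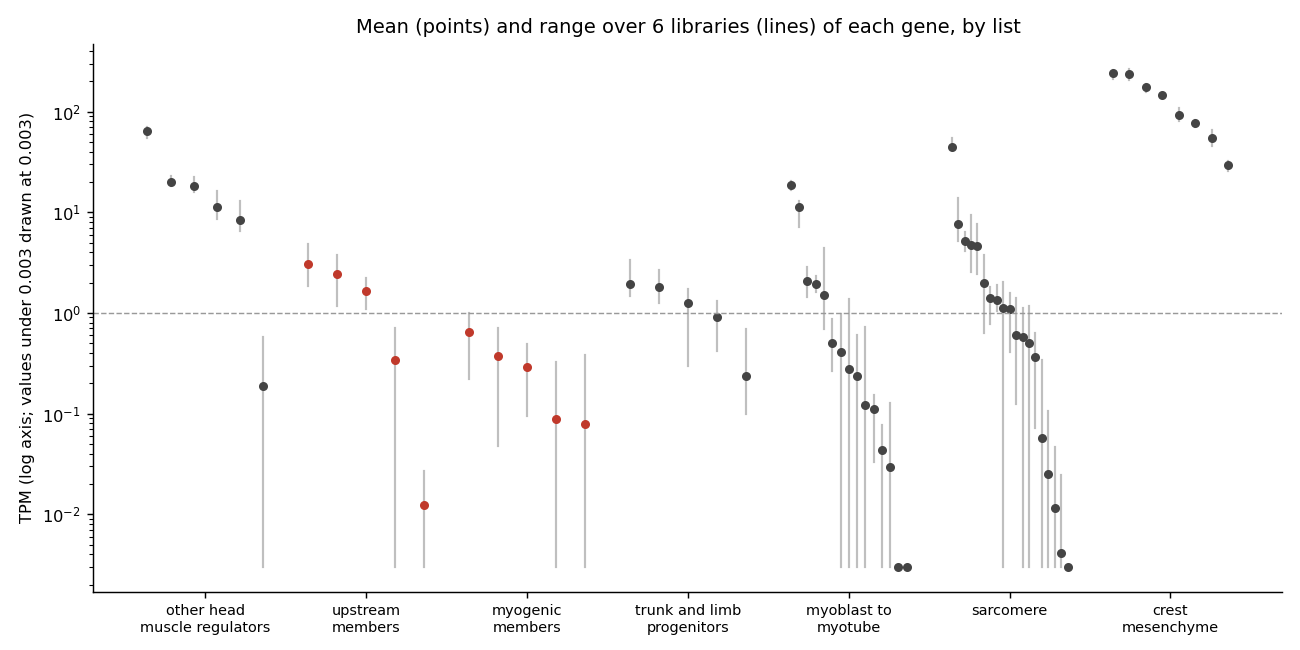
Mean TPM (points, log axis) and range over the 6 libraries (lines) of each gene in 7 lists, with the 10 described genes in red and a dashed line at 1 TPM. The 5 myogenic genes all average under 1 TPM, while 5 of 6 other head muscle regulators and all 8 genes of crest mesenchyme average at least 5 TPM.

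In the authors' deposited table, 0 of the 10 genes passed an adjusted p of 0.05 and 0 an unadjusted p under 0.05, against 1.85% of all genes at the unadjusted level. An adjusted p was given for 6 of the 10 and not for Myod1, Myog, Pax7 and Myf6. Of the 10 fold changes in the authors' deposited table, 4 were positive and 6 negative, with a median of -0.11. In the labelled comparison 3 of the 10 were tested and 0 called, beside 0 of all 12152 genes tested. Without a filter all 10 were tested, and 0 were called (limma adjusted p from 0.815 to 0.953), beside 0 of 17605. Each labelled group mixes low-Msx1 and high-Msx1 libraries, so these counts do not compare low with high Msx1.

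**Figure D5:**
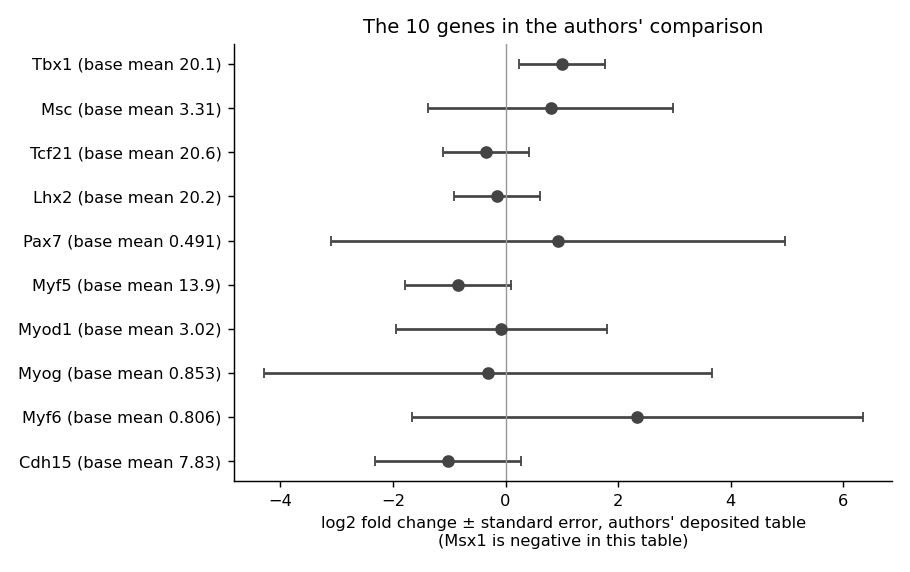
Log2 fold change (horizontal axis) with its standard error for the 10 genes in the authors' deposited table, in which Msx1 is negative; the base mean stands beside each name. Tbx1, at 1.00 ± 0.76, has an error bar that does not reach 0. Each bar is 1 standard error to either side, and the Wald p of Tbx1 in that table is 0.190. The bars of the genes with the lowest base means (Pax7, Myf6, Myog, Myod1 and Msc) span more than 3 log2 units.

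The genes whose levels ran most like the summed Myf5, Myod1, Myog and Myf6 over the 6 libraries were Magohb, Tmem86b, Zfp874b, Ipp, Zkscan8, Decr1, Plekhb2 and Adamts4, with a Pearson r, on log2(TPM + 1), of 0.972 to 0.993. None of these 8 is in the muscle lists used here. The sum they were matched to was 0.678, 0.875 and 1.55 TPM in libraries labelled mutant of litters 1, 2 and 3, and 1.22, 1.54 and 0.775 TPM in those labelled control. With 6 points and 11712 genes ranked, 53 genes had an r above 0.9, so the likeness is a description of these libraries.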

How the data were processed

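Per the file headers, the authors deposited 1 TPM value per gene and library (21827 genes). The submitters' processing notes name Salmon 1.5.2, DESeq2 and the mm10 build, with no roles or settings. TPM keep no depth, so no counting interval is given. The listed TPM summed to between 716208 and 735601, and 11929 to 12132 genes reached 1 TPM per library. The authors' deposited table holds, per the file headers, a base mean (a signal of normalised counts), a log2 fold change with standard error, the Wald score, and p-values before and after adjustment; its direction is not stated.

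Labelled groups were compared with limma 3.58.1 in R 4.3.3 (variance trend, robust) on log2(TPM + 1), a scale that understates the change of low genes, for the 12152 genes that reached 1 TPM in 3 or more libraries. Benjamini-Hochberg adjustment ran over all genes tested (threshold 0.05). P-values rest on 3 embryos per label. Summed levels were compared with an exact permutation test of libraries between labels (SciPy 1.17.1), which does not use the pairing by litter. The fit was tested on simulated data. Alternatives were another pseudocount, other filters, median-of-ratios scaling, litter as a block and leaving out each library; leaving out each litter was chosen after seeing the data. Per the series' design text, every litter supplied an embryo of both genotypes, so the libraries are paired by litter, although deviations of littermates did not correlate (r from -0.05 to -0.03).

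Positions are from GENCODE M21 (GRCm38), which holds 21642 of the listed IDs. The members and lists were chosen with earlier results of these data known. The text names all 10 members, Msx1, up to 4 genes per other list by mean TPM, genes past the threshold, and 8 genes by likeness; other names were chosen after their values were seen. In the list of other head muscle regulators, 2 genes are not reported here.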

Additional observations from a re-analysis of the deposited data

How the results depend on the processing

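Between the labels, 0 genes higher and 0 lower were called under the other pseudocount, no filter, a mean of 5 TPM (which tests none of the 10), median-of-ratios scaling and the replicate block (litter). Leaving out 1 library gave 0 to 1 genes higher (1 without control of litter 1) and 0 to 1 lower (1 without mutant of litter 1), none of them among the 10. Tbx1 stayed negative and uncalled throughout, from -0.76 to -0.31 over the left-out libraries (limma adjusted p from 0.684 to 0.928 over its settings), and was at -0.48 with the replicate block. Tcf21 ranged from -0.42 to 0.15, positive at 0.15 without control of litter 1 and at 0.0077 without control of litter 3. Lhx2 ranged from -0.0037 (without control of litter 2) to 0.27.

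The members higher in the low-Msx1 library in every litter numbered 1 (Tbx1) and those lower 0, also after median-of-ratios scaling and with the pseudocount of 0.1. Among genes above 0 in any library, 9.71% were higher and 10.9% lower in all 3 litters, so 1 of 10 is near the share of all genes. Over the remaining litters the counts were 2 higher and 2 lower without litter 1, 2 and 1 without litter 2, and 3 and 1 without litter 3, with Tbx1 among the higher each time; fewer litters make a shared order easier to meet. The labelled difference of the upstream sum, -1.78 ppm, was 0.180 without Tbx1, its member with the highest mean, and -2.89 to -0.448 over the left-out libraries. That of the myogenic sum, 0.172 ppm, ran from -0.221 (without mutant of litter 3) to 0.586. Few reads per gene limit all of these values.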

Other observations

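Single genes outside the 10 are given as values, chosen after their values were seen. Neb, which encodes the giant thin-filament protein nebulin, was at 1.59, 1.35 and 1.35 TPM in the low-Msx1 libraries of litters 1, 2 and 3, and at 1.33, 0.557 and 0.406 TPM in the high-Msx1 littermates. It had the smallest p of the 19 sarcomere genes in the authors' deposited table, at 1.08 ± 0.36 log2 units (p = 0.00265, adjusted p = 0.806). Actc1, the cardiac actin gene that early skeletal muscle also uses, was at 1.55, 1.55 and 0.625 TPM in the low-Msx1 libraries and at 3.78, 2.30 and 1.98 TPM in the high-Msx1 littermates (-1.15 ± 0.76, p = 0.130 in the authors' deposited table). Rbm24, which encodes a splicing regulator of striated muscle, was at 0.301, 0.264 and 0.278 TPM in the low-Msx1 libraries and at 0.736, 0.860 and 0.541 TPM in the high-Msx1 littermates (-1.32 ± 0.96, p = 0.170 in the authors' deposited table). These sarcomere and splicing genes thus did not share a direction.

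Markers of cardiac and smooth muscle are given as values. Of 8 cardiac genes 6 averaged under 1 TPM, the highest being the atrial light chain gene Myl7 at 0.705 to 5.82 TPM, and Myl2 was listed at 0 in every library. Of 6 smooth muscle genes, Myl9 and Smtn averaged 19.7 and 10.97 TPM, while Myh11, the smooth muscle myosin gene, stayed at or below 0.419 TPM.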
